A study of Aspergillus fumigatus with 4 samples.

Results

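Sugar chain trimming on secreted proteins of *Aspergillus fumigatus* Z5 was followed here through 4 of the 9540 genes of the deposited table, each picked by its locus tag. They were the α-1,2-mannosidase gene MsdS (Y699_04911), an α-glucosidase gene (Y699_09020), the gene of the catalytic α subunit of α-glucosidase II (Y699_00308) and Mas1 (Y699_06791). They were selected with their read counts in all 4 libraries known, so these counts are given as a description and carry no test. Conidia of strain Z5 were grown at 45 °C for 20 h by the sample labels, with sucrose as the carbon source in a medium that held yeast extract. For the xylan, cellulose and rice straw libraries, the washed mycelium was then kept for 16 h in yeast-free medium with 1 of these polysaccharides. Each carbon source had 1 poly(A) RNA library and no replicate. The methods of the study give a longer preculture than the labels, and the age of the sucrose culture at harvest was unclear in the sources used here. In comparisons with sucrose, the carbon source therefore cannot be told apart from the transfer, the medium and possibly the culture age. The xylan, cellulose and rice straw cultures shared the preculture, the transfer, the yeast-free medium and the 16 h. With 1 library each, differences among them still cannot be set against the spread between cultures.

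N-glycans are built on a lipid carrier and moved as a block onto asparagine residues of proteins entering the endoplasmic reticulum (ER) by oligosaccharyltransferase. Glucosidase I then removes the outermost glucose and glucosidase II the remaining glucose residues, while a glucosyltransferase that senses unfolded protein puts a glucose back, so that the chain binds the lectin chaperone calnexin until the protein is folded. Class I α-mannosidases of glycoside hydrolase family 47 (GH47) cleave α-1,2-linked mannose in the ER and Golgi, and related EDEM proteins mark misfolded glycoproteins for ER-associated degradation (ERAD). In fungi, mannosyltransferases such as Och1 afterwards lengthen the trimmed core, and secreted hydrolases commonly carry such chains.

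The label of the group held for MsdS and for α-glucosidase II. The Af293 counterparts named in the authors' function texts carry the RefSeq symbols msdS for Y699_04911 and agdC for Y699_09020, and none for Mas1. The α-glucosidase Y699_09020 belongs to GH31, which holds glucosidase II and also secreted α-glucosidases that act on maltose and starch, and the authors placed it in the glycan pathway by its best yeast match, which is glucosidase II. Its place in the ER was not tested. Mas1 is annotated as a DnaJ homolog and its best yeast match is Ydj1, a co-chaperone of Hsp70 in the cytosol. The authors list it under ERAD, and it is not a sugar-trimming enzyme.

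The levels moved apart by gene. Relative to sucrose, MsdS, the α-glucosidase and Mas1 were higher in all 3 polysaccharide libraries and highest in cellulose, whereas α-glucosidase II was lower in all 3 and lowest in rice straw. The libraries held 6820702 to 7553138 reads, so that 1 read was worth 0.132 to 0.147 RPM, the unit in which reads are scaled to a common library size. Intervals are exact at 95% and cover counting error only, in PCR-amplified reads without molecular identifiers. They say nothing of the spread between cultures, which was not measured.

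MsdS, which cleaves α-1,2-linked mannose from N-glycans, had 68 reads in sucrose (9.71 RPM, interval 7.54 to 12.3), 102 in xylan (14.95 RPM, 12.2 to 18.2), 1519 in cellulose (216 RPM, 206 to 228) and 760 in rice straw (101 RPM, 93.6 to 108). Sucrose and xylan formed a low pair and cellulose and rice straw a high pair. The ratio to sucrose was 1.54 in xylan (interval 1.12 to 2.13), 22.3 in cellulose (17.5 to 28.9) and 10.4 in rice straw (8.08 to 13.5). Cellulose exceeded rice straw 2.15-fold (1.97 to 2.35). Among the 7191 genes that reached 10 RPM in cellulose or sucrose, MsdS stood at rank 233 by the ratio of these libraries.

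The α-glucosidase gene Y699_09020 had 85 reads in sucrose (12.1 RPM, 9.69 to 15), 250 in xylan (36.7 RPM, 32.3 to 41.5), 6503 in cellulose (927 RPM, 904 to 950) and 762 in rice straw (101 RPM, 93.8 to 108). Cellulose stood far above the other libraries. The ratio to sucrose was 3.02 in xylan (2.35 to 3.91), 76.4 in cellulose (61.7 to 95.8) and 8.31 in rice straw (6.64 to 10.5), and cellulose exceeded rice straw 9.19-fold (8.52 to 9.92). It was at rank 101 by the ratio of cellulose to sucrose. Per kilobase of coding length it had 2.40 times the level of MsdS in cellulose, whereas MsdS had 1.78 times its level in rice straw.

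The α-glucosidase II gene Y699_00308 had 1380 reads in sucrose (197 RPM, 187 to 208), 745 in xylan (109 RPM, 102 to 117), 638 in cellulose (90.9 RPM, 84.0 to 98.3) and 334 in rice straw (44.2 RPM, 39.6 to 49.2). Its order was the reverse of the others at the sucrose end. It was 1.80-fold lower in xylan (1.65 to 1.97), 2.17-fold lower in cellulose (1.97 to 2.38) and 4.45-fold lower in rice straw (3.95 to 5.04). Xylan and cellulose lay closest, at a ratio of cellulose to xylan of 0.832 (0.748 to 0.927), and with 1 library each this cannot be set against culture spread.

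Mas1 had 687 reads in sucrose (98.1 RPM, 90.9 to 106), 2459 in xylan (361 RPM, 346 to 375), 4702 in cellulose (670 RPM, 651 to 690) and 1578 in rice straw (209 RPM, 199 to 219). Unlike MsdS and the α-glucosidase, it was higher in xylan than in rice straw, by 1.73-fold (1.62 to 1.84). The ratio to sucrose was 3.68 in xylan (3.38 to 4.01), 6.83 in cellulose (6.31 to 7.41) and 2.13 in rice straw (1.95 to 2.33). The 3 ratios of every gene share the same sucrose library.

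**Figure D1:**
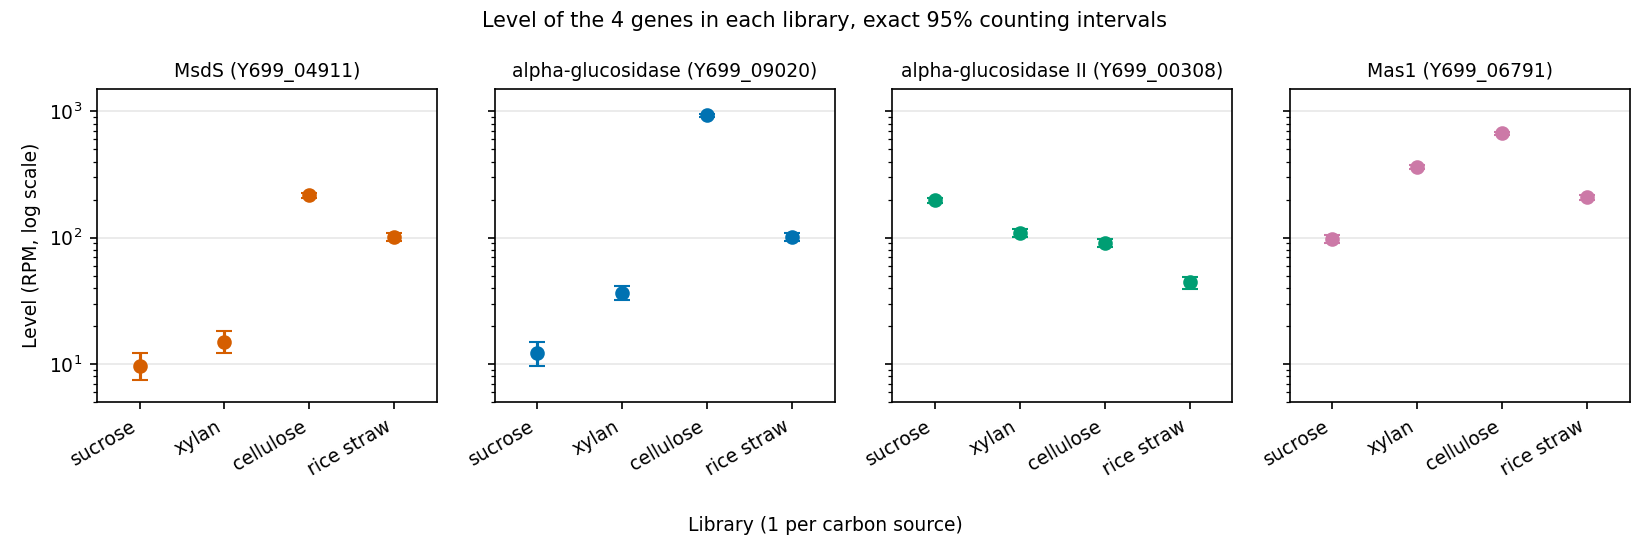
Level of each of the 4 genes (RPM, log scale) in the sucrose, xylan, cellulose and rice straw libraries, with exact 95% counting intervals as bars. The cellulose point is the highest for MsdS (216 RPM), the α-glucosidase (927 RPM) and Mas1 (670 RPM), and the sucrose point is the highest for α-glucosidase II (197 RPM).

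Calls against sucrose were made for every gene with an exact two-sided binomial test of its reads in the 2 libraries. A call required an adjusted q (Benjamini-Hochberg) no larger than 0.0001, a 4-fold or larger RPM ratio, and 10 RPM on at least one side. The test compares libraries, not conditions. In cellulose 10.9% of the 9423 genes tested were called higher and 7.28% lower; MsdS, the α-glucosidase and Mas1 were past the higher threshold. In rice straw 7.61% were called higher and 7.12% lower, with MsdS and the α-glucosidase past the higher threshold and α-glucosidase II past the lower. In xylan 3.16% were called higher and 1.57% lower, and none of the 4 genes passed. Since these values chose the genes, nothing is read from the counts. Every library is a bulk culture, so fewer cells that use a gene and less of its RNA per cell cannot be told apart.

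The side of the 4-fold threshold was close for 2 values. The 4.45-fold lower level of α-glucosidase II in rice straw fell inside 4-fold when the libraries were scaled by edgeR's trimmed mean of M values (TMM), at -1.86 on the log2 scale, and Mas1 in xylan passed it, at 2.07. Scaling moved all genes together: TMM raised every log2 ratio to sucrose by 0.19 in xylan and 0.30 in rice straw and changed it by -0.08 in cellulose. The median log2 ratio of all genes tested was -0.20 in xylan and -0.30 in rice straw, and 0.07 in cellulose, with library totals.

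Levels of different genes were compared per kilobase of coding length, in RPM per kilobase. In sucrose Mas1 (78.2) and α-glucosidase II (67.8) were the more abundant, MsdS (6.55) and the α-glucosidase (4.59) the less abundant. In cellulose the order was Mas1 (534), the α-glucosidase (350), MsdS (146) and α-glucosidase II (31.3). α-Glucosidase II had 14.8 times the level of the α-glucosidase per length in sucrose, and the α-glucosidase had 11.2 times that of α-glucosidase II in cellulose. By this level MsdS went from percentile 30.6 of all genes in sucrose to 90.7 in cellulose, the α-glucosidase from 25.9 to 96.4, and Mas1 from 83.1 to 97.7, while α-glucosidase II went from 80.7 in sucrose to 50.4 in rice straw.

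The other 4 genes of the ER glucose cycle also had their highest level in sucrose. This list, taken from the authors' secretory pathway table, held 5 genes with α-glucosidase II. The gene annotated as a protein kinase C substrate (Y699_08433), which is the β subunit of glucosidase II by its yeast match Gtb1 and holds the catalytic subunit in the ER, had 895 reads in sucrose, 296 in xylan, 304 in cellulose and just 201 in rice straw. It was 4.80-fold lower in rice straw (q = 7.7e-116, exact binomial test), the only other gene of the list past 4-fold, and this call was lost with TMM or DESeq2 scaling. Its ratio to sucrose was 0.340 in xylan (0.297 to 0.388) and 0.339 in cellulose (0.297 to 0.387). The 2 subunits thus had their highest level in sucrose and their lowest in rice straw, at 75.1 and 15.6 RPM per kilobase for the β subunit beside 67.8 and 15.2 for the α subunit.

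Glucosidase I (Y699_07282), which takes off the first glucose, had 340 (sucrose), 162 (xylan), 289 (cellulose) and 184 (rice straw) reads. Its ratios to sucrose of 0.489 (0.403 to 0.592), 0.849 (0.723 to 0.996) and 0.502 (0.417 to 0.602) stayed inside 4-fold. The UDP-glucose:glycoprotein glucosyltransferase (Y699_04797), which puts glucose back on unfolded glycoproteins, had 604, 218, 505 and 198 reads, and its ratios were 0.371, 0.835 and 0.304. Calnexin ClxA (Y699_04863), the lectin chaperone, had 2870, 1654, 2164 and 2005 reads, and its ratios were 0.592, 0.753 and 0.648. Without α-glucosidase II, the 12 ratios of these 4 genes lay below 1, and their median log2 ratio was -1.35 in rice straw, -1.23 in xylan and -0.33 in cellulose (-1.06, -1.04 and -0.42 with TMM scaling). By the same rule at 2-fold, 3 of the 4 were lower in xylan (2 with TMM scaling), 2 in rice straw and 1 in cellulose, and over all genes tested 9% were lower at 2-fold in xylan, 21.9% in rice straw and 16.6% in cellulose.

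In the GH47 family MsdS, picked with its values known, was the only 1 of 6 genes called at 4-fold in any comparison. Over all genes, 10.9% were called higher and 7.28% lower in cellulose, 7.61% and 7.12% in rice straw, 3.16% and 1.57% in xylan. For only 5 other genes, 0 calls is near these shares. The class I α-mannosidase 1A gene (Y699_04366) had 1442 (sucrose), 2014 (xylan), 1531 (cellulose) and 1444 (rice straw) reads, and the class I α-mannosidase gene Y699_06383 had 392, 570, 641 and 527. Their ratios to sucrose ran from 0.929 to 1.63. The α-1,2-mannosidase gene Y699_03838 had 293, 219, 194 and 140 reads and was 2.26-fold lower in rice straw (q = 7.6e-16, exact binomial test). The EDEM gene (Y699_08928) had 386, 259, 638 and 298 reads, with a ratio of 1.65 in cellulose (1.45 to 1.88), and Y699_02065 had 2 reads in xylan and none elsewhere.

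MsdS thus took a changing share of the family. It held 2.63% of GH47 reads in sucrose (interval 2.05 to 3.33%), 3.22% in xylan (2.63 to 3.90%), 33.6% in cellulose (32.2 to 34.98%) and 24.0% in rice straw (22.5 to 25.5%). Per coding length the share was 4.33% in sucrose and 45.7% in cellulose, where MsdS ranked first of the 6 after a rank of 5 in sucrose. The other 5 genes together gave 319 RPM in rice straw, 359 in sucrose, 428 in cellulose and 449 in xylan. In this sum opposite changes offset each other, such as Y699_03838 lower and Y699_06383 higher in cellulose. MsdS was picked with its values known, so its share and rank are only a description and its range is not compared with that of the sum.

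The 2 GH31 genes of the group exchanged places. α-Glucosidase II held 64.8% of GH31 reads in sucrose (62.7 to 66.8%), 25.7% in xylan (24.1 to 27.3%), 6.07% in cellulose (5.62 to 6.55%) and 9.57% in rice straw (8.61 to 10.6%). The α-glucosidase Y699_09020 held 3.99% in sucrose (3.20 to 4.91%), 8.63% in xylan (7.63 to 9.71%), 61.9% in cellulose (60.9 to 62.8%) and 21.8% in rice straw (20.5 to 23.2%). The family as a whole went from 304 RPM in sucrose to 1498 RPM in cellulose.

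The gene that led GH31 in xylan and rice straw was Y699_03315, annotated as a sugar hydrolase, with 510 (sucrose), 1814 (xylan), 3033 (cellulose) and 2141 (rice straw) reads. It was 5.94-fold higher in cellulose (5.40 to 6.53) and 3.89-fold and 3.65-fold higher in rice straw and xylan, short of the 4-fold rule, which it passed in both with TMM scaling. The α-glucosidase gene Y699_06649 was 6.93-fold higher in cellulose (q = 3.1e-18, exact binomial test), from 16 reads to 111. AgdA (Y699_06391), annotated as an α-glucosidase, was 5.14-fold lower in xylan (q = 8.1e-13, exact binomial test), with 95, 18, 160 and 99 reads, and this call was lost at an assumed coefficient of variation of 0.2. The glycosyl hydrolase gene Y699_06955 was highest in rice straw with 123 reads against 41 in sucrose, and Y699_04623 had 3 to 5 reads in every library. Of the 5 GH31 genes outside the group, 2 were called higher in cellulose (10.9% of all genes) and 1 lower in xylan (1.57% of all genes). The 2 in cellulose became 1 with 10 RPM asked of both libraries and 0 at an assumed coefficient of variation of 0.4.

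**Figure D2:**
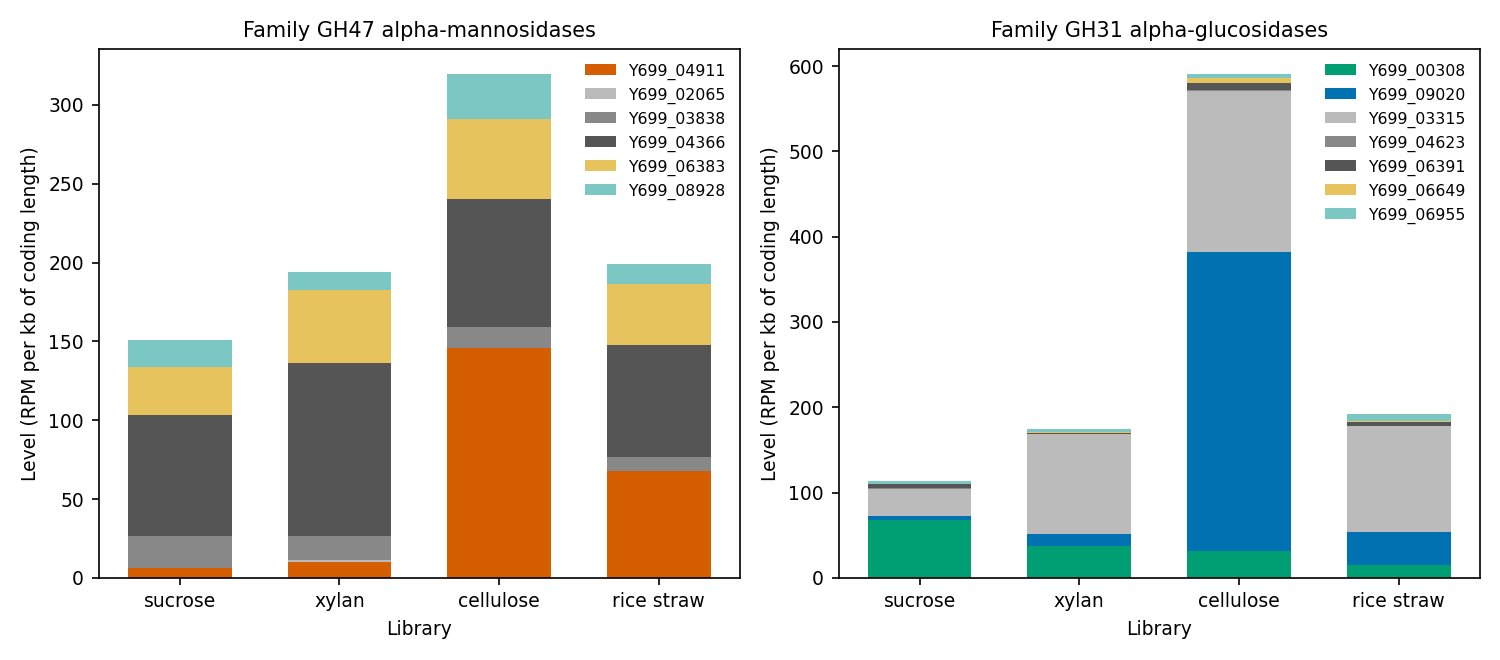
Level of each gene of the GH47 and GH31 families (RPM per kilobase of coding length) stacked by library, with the genes of the group in orange, blue and green. MsdS widens from 6.55 in sucrose to 146 in cellulose; in GH31, α-glucosidase II shrinks from 67.8 to 31.3 while the α-glucosidase Y699_09020 grows from 4.59 to 350.

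Outside GH47, 7 genes encode α-mannosidases of families GH38, GH92 and GH125. The GH92 gene Y699_08193, annotated as an α-1,2-mannosidase family protein, had 29 (sucrose), 119 (xylan), 2482 (cellulose) and 509 (rice straw) reads, and was 4.21-fold, 85.5-fold and 16.3-fold higher. The call in xylan was lost at an assumed coefficient of variation of 0.2 and with 10 RPM asked of both libraries. These values had the same order of libraries as those of MsdS and Y699_09020. Y699_02205, annotated as a DUF1237 domain protein, was higher by 5.27-fold in cellulose and by 6.56-fold in rice straw. These made 2 calls of 7 in cellulose, 2 in rice straw and 1 in xylan, beside 10.9%, 7.61% and 3.16% of all genes. No gene of the list was called lower at 4-fold, beside 7.28%, 7.12% and 1.57% of all genes. At 2-fold, 5 of the 7 were higher and 1 lower in cellulose, beside 20.9% and 16.6% of all genes. In rice straw 3 were higher and 1 lower, beside 14.4% and 21.9%. In xylan 1 was higher, beside 7.51%, and the median log2 ratio of the list was -0.46, below that of all genes.

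In the rest of the N-glycan pathway more genes were lower than higher. Taken over 5 lists (the ER glucose cycle, GH47, oligosaccharyltransferase, synthesis of the lipid-linked precursor, and the outer chain mannosyltransferases), 42 genes stood outside the group. None of them was called higher at 4-fold in any comparison, beside 10.9% (cellulose), 7.61% (rice straw) and 3.16% (xylan) of all genes. Called lower were 5 in cellulose (12.2% of those tested), 2 in rice straw (4.88%) and 1 in xylan (2.38%), near the 7.28%, 7.12% and 1.57% of all genes. At an assumed coefficient of variation of 0.4 between cultures, edgeR's exact test called 0 of them. At 2-fold, 12 of 42 were lower in xylan (28.6%), 12 of 41 in cellulose (29.3%) and 13 of 41 in rice straw (31.7%), beside 9%, 16.6% and 21.9% lower over all genes. Higher at 2-fold were 0, 1 and 0 of them, beside 7.51%, 20.9% and 14.4% of all genes. With TMM scaling the genes lower at 2-fold were 5 of 42 in xylan, 8 of 41 in rice straw and 12 of 41 in cellulose, beside 5.97%, 15.6% and 18% of all genes. The excess over all genes was thus smaller in xylan and rice straw with TMM scaling, and the count in rice straw was near that share. The median log2 ratio of the 42 was -0.55, -0.44 and -0.63, which is 0.36, 0.52 and 0.33 below that of all genes tested.

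The 6 oligosaccharyltransferase subunits, which attach the chain to the protein, had no call at 4-fold, and all 6 had ratios below 1 in xylan and in cellulose. At 2-fold, 3 were lower in each of xylan and cellulose and 2 in rice straw, beside 9%, 16.6% and 21.9% of all genes, and with TMM or DESeq2 scaling 1 was lower in xylan and 1 in rice straw. Among the 16 genes of precursor synthesis, Alg2 (Y699_05194), a mannosyltransferase of the growing lipid-linked chain, was 4.90-fold lower in cellulose, from 357 reads to 73. Y699_06291 was 14.3-fold lower in cellulose, from 2560 reads to 179, and its ratio was 0.299 in rice straw. It stands in this list by its yeast match Sec59, the dolichol kinase that renews the lipid carrier, although its function text names an enzyme of phospholipid synthesis.

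Among the 11 outer chain genes, Och1 (Y699_00703), which adds the first outer mannose to the trimmed core, had 587 (sucrose), 127 (xylan), 138 (cellulose) and 189 (rice straw) reads. It was called lower in xylan (4.50-fold, a call lost with TMM or DESeq2 scaling) and in cellulose (4.26-fold), and its ratio was 0.299 in rice straw. Y699_05773 and Y699_04520 are glycosyltransferases whose yeast match is Hoc1. Y699_05773 was 22.7-fold lower in cellulose and 12.2-fold lower in rice straw, and Y699_04520 was 7.08-fold lower in cellulose with 14 reads against 99. The list was not of one direction in cellulose, where 5 of the 11 ratios lay above 1, and Mnn2 (Y699_07255), chosen for naming after its values were seen, had a ratio of 3.79.

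**Figure D3:**
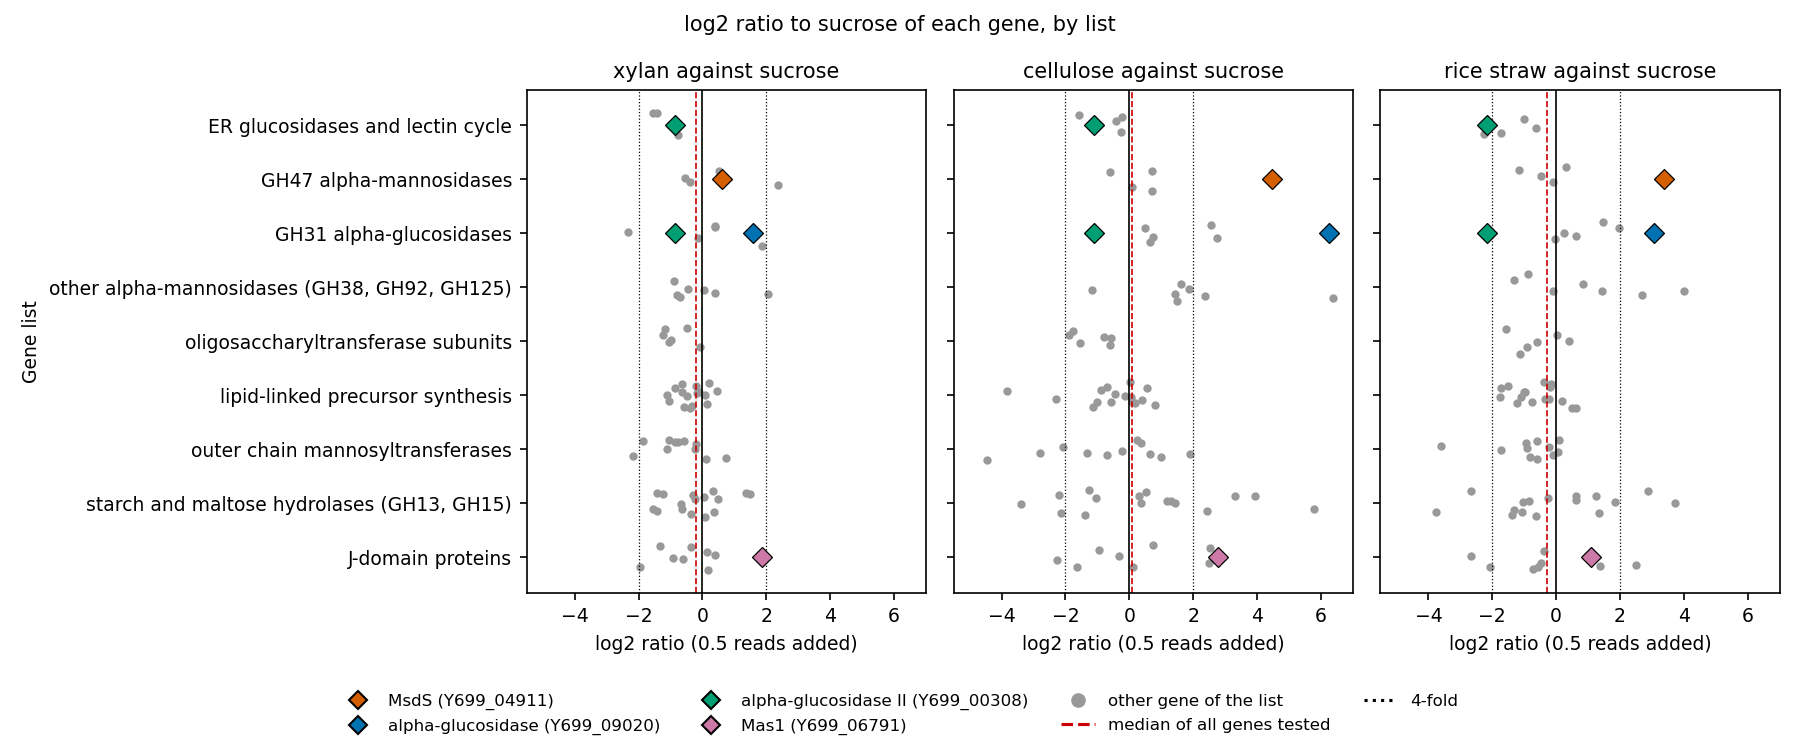
log2 ratio to sucrose (0.5 reads added) of each gene by list in the 3 comparisons, with the 4 genes as coloured diamonds, other genes as grey points, the median of all genes as a dashed red line and 4-fold as dotted lines. MsdS, picked with its values known, lies right of 0 in each panel, and the 5 genes of the ER glucose cycle lie left of 0 in each panel.

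Since Y699_09020 shares its family with starch-degrading enzymes, the 16 starch and maltose hydrolases of GH13 and GH15 were set beside it. In cellulose 4 were called higher and 2 lower, beside 10.9% and 7.28% of all genes. In rice straw 1 was higher and 1 lower, near the 7.61% and 7.12% of all genes. In xylan there was no call, near the 3.16% higher and 1.57% lower of all genes. The glucoamylase gene Y699_08026 had 4 reads in sucrose and 245 in cellulose, a 61.2-fold ratio (23.6 to 226), and Y699_03967 was 5.46-fold higher there. The α-amylase gene Y699_04642 was 10.6-fold lower in cellulose, with 1225 reads in xylan, 445 in sucrose, 401 in rice straw and 42 in cellulose. The glucoamylase gene Y699_04641, next to it in locus order, was 7.32-fold higher in rice straw. None of these genes reached the 6503 reads that Y699_09020 had in cellulose except the α-amylase Y699_07996, which had 8552 reads in rice straw and was chosen for naming after its values were seen.

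Mas1 was set beside 8 other genes of J-domain proteins, which stimulate Hsp70 chaperones. Part of this list came from the authors' table of varying genes, so it is not independent of these libraries. Mas5 (Y699_02247), the other DnaJ homolog with the same orthology class as Mas1, had 269 (sucrose), 294 (xylan), 1531 (cellulose) and 747 (rice straw) reads. It was 5.68-fold higher in cellulose (4.99 to 6.49) beside 6.83-fold for Mas1, while its ratio in xylan was 1.12 (0.948 to 1.33) against 3.68 for Mas1. Whether reads of these 2 genes were told apart where they are alike is not given in the sources used here. Zuotin (Y699_03526), a chaperone at the ribosome, was higher by 5.73-fold in cellulose and by 5.64-fold in rice straw.

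The J-domain gene Y699_06699 went the other way, 4.82-fold lower in cellulose from 7645 reads. SCJ1 (Y699_02973), a J-domain protein of the ER lumen in yeast, was 4.19-fold lower in rice straw, a call lost with TMM or DESeq2 scaling. Sec63 (Y699_09131) of the ER translocation channel and Erj5 (Y699_03820) of the ER stayed inside 2-fold in every comparison, and both were chosen for naming after their values were seen. Of the reads of the 9 genes, Mas1 took 5.80% in sucrose, 13.3% in rice straw, 16.8% in xylan and 34.7% in cellulose. Y699_06699 held 7645 of these 11836 reads in sucrose and 1589 of 13541 in cellulose, so the share of Mas1 also depends on that gene.

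The genes on either side of each member in locus order were also read. Beside the α-glucosidase Y699_09020 lies XdhB (Y699_09019), a xylitol dehydrogenase of xylose use, with 40 (sucrose), 595 (xylan), 426 (cellulose) and 477 (rice straw) reads. It was 15.3-fold, 10.6-fold and 11.1-fold higher in the polysaccharide libraries, an order unlike that of its neighbour. On the other side Y699_09021 had 11, 4, 137 and 1 reads. The RNA helicase gene Rok1 (Y699_09017) was 4.63-fold higher in cellulose. In all, 3 of 6 neighbours of Y699_09020 were called higher in cellulose, beside 10.9% of all genes.

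Near MsdS, Utp11 (Y699_04909), a protein of small ribosomal subunit assembly, was higher by 6.37-fold in cellulose and by 3.99-fold in rice straw, short of the rule in the latter. The 3 genes after MsdS ran the opposite way in rice straw. They were the 3 of its 6 neighbours called lower there, beside 7.12% of all genes. Y699_04912 had 2053 reads in sucrose and 4 in rice straw, Y699_04913 had 7069 and 14, and Y699_04914 had 774 and 112. No function text was found for these 3 genes. The 6 neighbours of α-glucosidase II and the 6 of Mas1 had no call in xylan or cellulose. In rice straw 1 neighbour of Mas1 (Y699_06794) was called lower, beside 7.12% of all genes. Over all genes 3.16% were called higher and 1.57% lower in xylan, and 10.9% and 7.28% in cellulose. For only 6 genes each, these counts are near those shares.

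**Figure D4:**
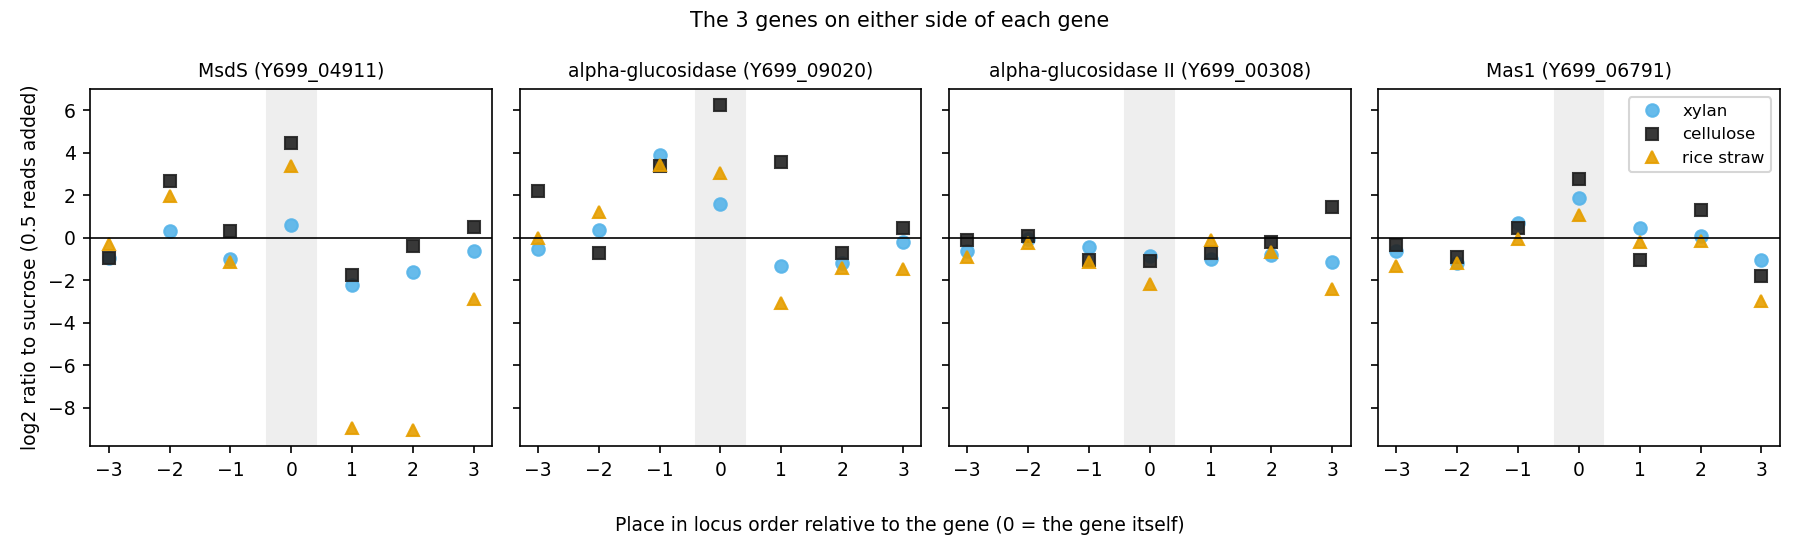
log2 ratio to sucrose (0.5 reads added) of each of the 4 genes at place 0 and of the 3 genes on either side in locus order, for xylan (circles), cellulose (squares) and rice straw (triangles). The 2 genes just after MsdS, which fell from 2053 to 4 and from 7069 to 14 reads, lie far below 0 in rice straw while MsdS lies above it.

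Genes with the most similar pattern were found by the distance of the 3 log2 ratios to sucrose, among 7446 other genes with at least 10 RPM in any library. Within 1 log2 unit lay 504 genes for α-glucosidase II, 44 for Mas1, 32 for MsdS and 3 for Y699_09020. A fixed distance holds fewer genes around more extreme ratios. The counts therefore do not show how common the shape of a pattern is. The gene nearest to α-glucosidase II, at a distance of 0.05, was Y699_01581 of the Sec23/Sec24 family, whose proteins coat vesicles leaving the ER, with 262 RPM in sucrose, 141 in xylan, 123 in cellulose and only 59.2 in rice straw. The others were the exo-β-1,3-glucanase gene Y699_04082 and Y699_03493, Y699_01610 and Y699_09153, for which no function text was found.

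Nearest to MsdS were Y699_09277, Y699_01887, Y699_04636, an F-box and WD40 domain gene (Y699_01368) and the gene of a Ras-related protein, RSR1 (Y699_00736), at distances of 0.29 to 0.46. Nearest to Y699_09020 were an oxidoreductase gene (Y699_03523), a gene annotated as aspartate-tRNA ligase (Y699_05957), Y699_09287, a BTB/POZ domain gene (Y699_07871) and Y699_07964, at 0.81 to 1.02. Of these, Y699_07871 reached a level as high, with 1047 RPM in cellulose and 8.71 in sucrose. Nearest to Mas1 were Y699_02139, Y699_00033, the C6 zinc finger gene Y699_07331, Y699_03675 and Y699_00113, at 0.03 to 0.51; the highest level among them was 49.9 RPM, of Y699_03675 in cellulose. The distances rest on 4 libraries and share the sucrose library. Several of these genes had few reads in sucrose, such as 16 for Y699_02139, 7 for Y699_09277 and 2 for Y699_09287. The ratio of Y699_02139 in xylan was 3.79 (2.15 to 7.05), so its distance of 0.03 is smaller than its counting error.

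The cellulose library, in which 3 of the 4 genes were highest, also held the most RNA of conidiation genes. The 8 conidiation markers, part of which came from the authors' table of varying genes, summed to 3527 RPM in cellulose against 88.2 in sucrose, 98.2 in rice straw and 126 in xylan, none was at 0 in any library, and 7 of 8 were called higher in cellulose, beside 10.9% of all genes. RodB (Y699_09371), a conidial hydrophobin, had 34 reads in sucrose and 14541 in cellulose, RodA (Y699_00799) had 4 and 3596, the pigment polyketide synthase gene Y699_02122 had 435 and 4257, and Arp2 (Y699_02124) had 41 and 922. The markers did not move as one elsewhere. In rice straw RodB had 316 reads and was 8.62-fold higher than in sucrose, the only 1 of the 8 called there, beside 7.61% of all genes called higher. Y699_02122 was 2.30-fold lower, and the ratio was 0.464 for RodA and 1.04 for Arp2. Of the 8 ratios in rice straw, 5 lay above 1 and 3 below. In xylan RodA had 99 reads and RodB 152. The part of conidiation in the values of the 4 genes was not tested.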

How the data were processed

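The 4 genes and all lists were chosen with earlier results of these data known. The deposited table gives read counts per gene, which the authors obtained with an aligner that the submitters' processing notes name as Bowtie 0.12.2. Strand and reads with several matches: not given in the sources used here. The deposited RPM values are counts scaled by the library total and were reproduced from the counts. Gene length is a multiple of 3 for all 9540 genes and was used as coding length. The authors' log2 ratios, p-values and q-values between libraries were deposited too and were not used.

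Counts were taken as deposited. Ratios and shares carry exact 95% binomial intervals. Genes with any read in the 2 libraries were tested as described above. The procedure was run on simulated data that held counting error only. With no spread between cultures in it, the simulation cannot show how reliable the calls are for conditions. Named were the 4 genes, all genes of the glucose cycle, GH47 and GH31 lists, up to 4 called genes of each other list with the highest RPM, the 5 genes most like each member and 3 neighbours on either side. Any other name is given as picked with its values in view. Alternatives changed scaling, test, RPM floor, length division and the measure of likeness. The tools were R 4.3.3 (edgeR 4.0.16, DESeq2 1.42.0) and Python 3.11.15 with scipy 1.17.1, pandas 2.3.3, numpy 2.4.6 and matplotlib 3.10.9. Promoter and protein sequences were not used here.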

Additional observations from a re-analysis of the deposited data

How the results depend on the processing

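With 1 library per carbon source, leaving out a library removes its comparison, so no such value was computed. No paired analysis was possible because each group held 1 library. Counting intervals do not cover variation between cultures.

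Of 36 rescaled ratios of the 4 genes to sucrose, 31 kept their direction and their side of 4-fold and none changed direction. α-Glucosidase II (Y699_00308) in rice straw moved from past 4-fold to inside it, at -1.86 on the log2 scale with TMM, -1.86 with DESeq2 size factors and -1.99 with totals without the top 1% of genes. Mas1 (Y699_06791) in xylan moved past 4-fold, at 2.07 with TMM and 2.09 with DESeq2 size factors.

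Other N-glycan pathway genes called lower in xylan were 0 in place of 1 with TMM, with DESeq2 size factors and with edgeR's exact test at an assumed coefficient of variation of 0.4. In cellulose they were 0 in place of 5 at 0.4 and 3 with 10 RPM asked of both libraries. In rice straw they were 0 in place of 2 at 0.4, and 1 with TMM, with DESeq2 size factors and with 10 RPM in both libraries. At an assumed 0.2 the counts did not move by over 1.5 times. At 0.4 the calls over all genes were 57 higher and 13 lower in xylan, 209 and 138 in cellulose, and 153 and 61 in rice straw, and with 10 RPM in both libraries they were 119 and 69, 433 and 327, and 279 and 362. These counts over all genes were added after seeing the data. Of 420 counts for single lists, 53 moved by over 1.5 times, 21 of them at 0.4.

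Divided by coding length, MsdS held 4.33%, 5.19%, 45.7% and 34.2% of GH47 in sucrose, xylan, cellulose and rice straw. α-Glucosidase II held 59.8%, 21.5%, 5.30% and 7.91% of GH31, and the α-glucosidase Y699_09020 held 59.3% in cellulose and 19.8% in rice straw. By Pearson correlation in place of distance, the 5 nearest genes shared 0 with those of MsdS and Y699_09020 and 1 each with those of α-glucosidase II and Mas1, so those names depend on the measure.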
